A study of Mus musculus with 16 samples.

Results

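The genes described here are 8 enzymes of heme synthesis and the receptor that brings iron into the cell: Alas1, Alas2, Alad, Uros, Urod, Cpox, Ppox and Fech, with Tfrc, the transferrin receptor. They are the 9 rows of the deposited expression table that carry these symbols, out of 33531 listed genes. All 9 were among the 13955 genes that reached 1 FPKM in at least 2 libraries and were tested. FPKM counts the fragments of a gene per kilobase of transcript, scaled to all mapped fragments of its library, so it allows levels of different genes to be set side by side.

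Heme is built by a chain of enzymes that starts in the mitochondrion, continues in the cytosol and ends back in the mitochondrion. The first and controlling step is carried out by the housekeeping enzyme ALAS1 in most cells and by ALAS2 in red cell precursors, and the last enzyme, ferrochelatase (Fech), inserts iron that enters the cell with transferrin through the transferrin receptor. Developing red cells make far more heme than other cells, for hemoglobin, and in the mouse the first red cells arise in the yolk sac next to the endothelium. Hemogenic endothelium is the endothelium from which blood cells bud, a step that needs the transcription factor RUNX1.

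RNA had been sequenced from sorted endothelial cells (EC) and hemogenic endothelial cells (HE) of mouse conceptuses at 2 stages, E9.5 and E10.5, where E stands for embryonic day. The 2 sites were the yolk sac and what is called the embryo below, a trunk piece with the aorta-gonad-mesonephros, some somite tissue, and the vitelline and umbilical vessels, which gives 8 groups of 2 libraries, 16 in all. The strain in all groups was Runx1tm4Dow x B6C3F1: superovulated B6C3F1/J females had been mated with males homozygous for the Runx1-GFP allele, so every conceptus carried that allele. EC were sorted as Runx1-GFPneg, CD31+, kit-, CD41-, CD45- and HE as Runx1-GFP+, CD31+, kit lo/-, CD41-, CD45-. The sources do not say how many conceptuses went into a library, nor whether the libraries of a group came from different litters or sorting days. The p-values thus reflect the scatter of these samples alone, and this scatter may be technical. Each group mean below rests on n = 2, and both values are given for the genes on which the results turn.

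Runx1, the gene whose reporter separated HE from EC, followed the labels in 3 of the 4 pairs of groups. It stood at 15.9 and 21.5 FPKM in E9.5 embryo HE against 0.883 and 1.15 in EC, at 5.81 and 8.10 in E9.5 yolk sac HE, where EC held 2.09 and 2.37, and at 3.13 and 3.74 in E10.5 embryo HE, where EC held 0.805 and 0.956. In the E10.5 yolk sac the libraries labelled HE held 2.17 and 2.19 FPKM and the EC libraries 2.04 and 2.60, so Runx1 did not separate them. The same 2 libraries also stood apart in a list of 12 endothelial genes, whose FPKM summed to 242 and 751 there and to between 973 and 4160 in the other 14, and in a list of 8 mesenchymal genes, with 5166 and 6316 against 98.3 to 1989. They are called the libraries labelled HE below, and the calls of members and many of the list counts that include them are also given without them. Red cell genes were present in every library: 5 globin genes summed to between 1897 and 11958 FPKM in the embryo libraries and to between 14150 and 55786 in the yolk sac libraries, and none of 19 erythroid genes was at 0 in any library.

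Alas2, the erythroid form of the first enzyme, varied most among the members, 40.0-fold between its lowest and highest library. In the embryo it stood at 3.90 and 24.0 FPKM in E9.5 EC, 16.3 and 28.7 in E9.5 HE, 14.1 and 19.9 in E10.5 EC, and 19.9 and 25.4 in E10.5 HE. In the yolk sac it stood at 36.3 and 83.6 FPKM in E9.5 EC, 70.0 and 156 in E9.5 HE, 89.1 and 112 in E10.5 EC, and 52.3 and 121 in the libraries labelled HE. Every yolk sac library was above every embryo library. In the order of the 8 group means, only the step between E9.5 yolk sac EC, at 59.9 FPKM, and E10.5 embryo HE, at 22.6, separated neighbours whose libraries did not overlap. In these bulk samples, more cells of a type and more RNA per cell cannot be told apart.

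**Figure D1:**
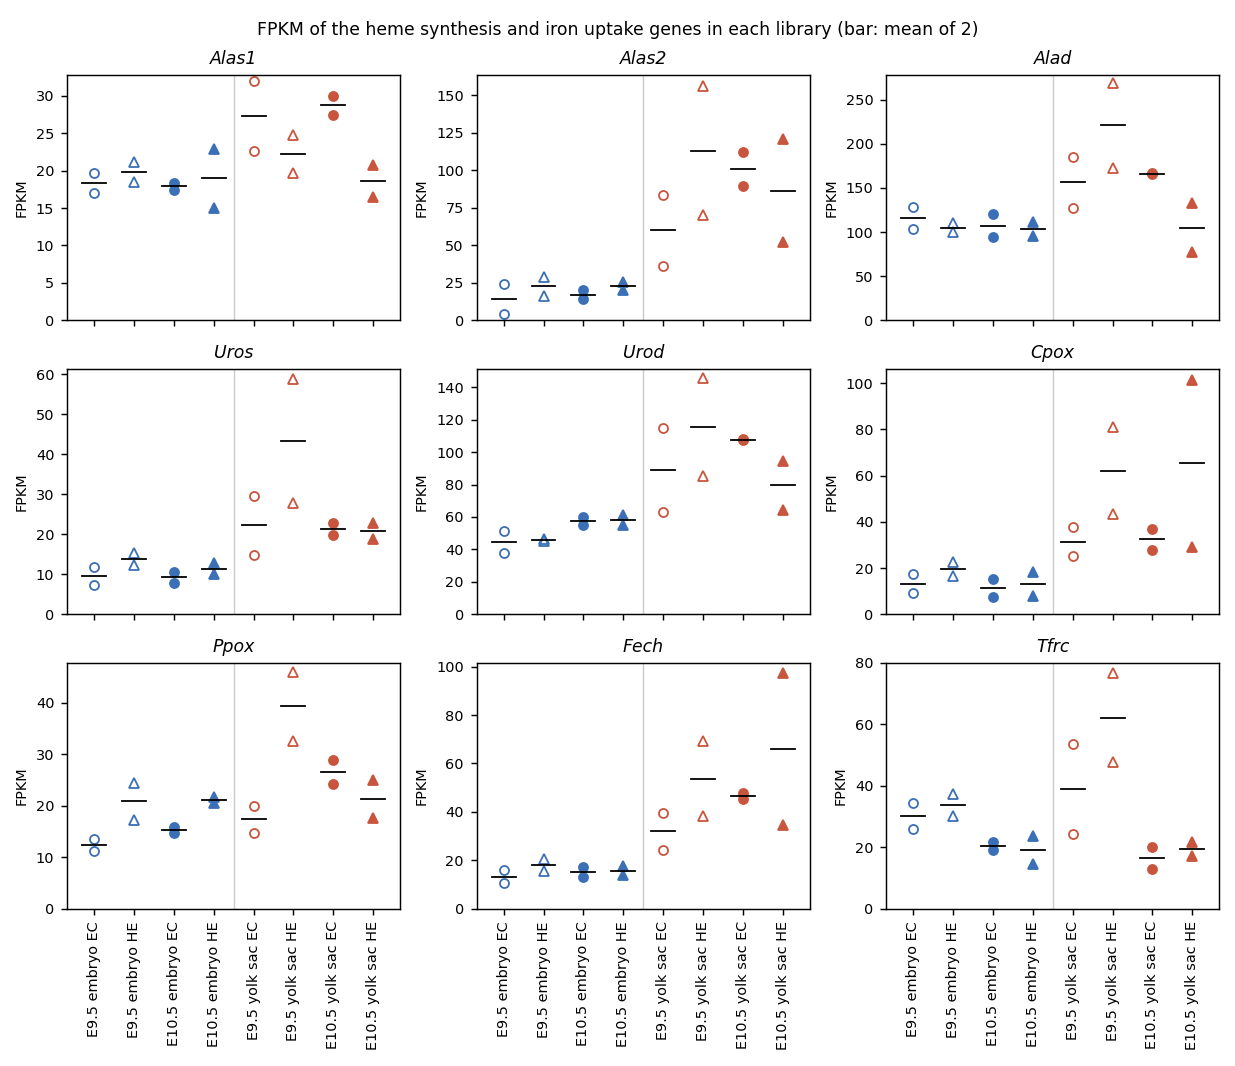
FPKM of each of the 9 genes (linear axis from 0) in every library, by group; each point is 1 library (blue embryo, red yolk sac; circles EC, triangles HE; open E9.5, filled E10.5) and each bar the mean of 2. The yolk sac points of Alas2, Urod, Cpox and Fech lie above all embryo points, and the E10.5 points of Tfrc lie below all E9.5 points.

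Alas1, the housekeeping form of the same enzyme, covered a narrow range, 15.0 to 32.0 FPKM over the 16 libraries. Its highest group means were in yolk sac EC, with 30.0 and 27.5 FPKM at E10.5 and 32.0 and 22.6 at E9.5. The embryo EC libraries held 17.4 and 18.3 FPKM at E10.5 and 17.0 and 19.7 at E9.5, below both pairs from the yolk sac. In HE the sites overlapped, with 15.0 to 22.9 FPKM in the embryo and 16.4 to 24.8 in the yolk sac. The ratio of the erythroid to the housekeeping form ran from 0.229 in 1 E9.5 embryo EC library to 7.95 in 1 E9.5 yolk sac HE library.

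The regulatory sequences of Alas2 and Tfrc are shown because both messages are textbook targets of control by iron. Iron regulatory proteins bind a stem-loop called the iron-responsive element: in a 5′ UTR, as in Alas2, binding blocks translation, and in a 3′ UTR, as in Tfrc, it protects the message from decay. A search of the GENCODE vM21 transcripts (GRCm38) for an unpaired C, 5 paired bases (G-T pairs allowed) and the loop CAGTGN, with N not G, found 1 such hairpin in the 5′ UTR of Alas2, on chromosome X (chrX:150547460-150547485), and 4 in the 3′ UTR of Tfrc on chromosome 16 (chr16:32631221-32631246, chr16:32631600-32631625, chr16:32631665-32631690 and chr16:32631712-32631737), all on the plus strand. Capitals mark the loop.
Alas2 5′ UTR: ggttcgtcctCAGTGCagggcaacag
Tfrc 3′ UTR, hairpin 1: ttatcggaagCAGTGCcttccataat
Tfrc 3′ UTR, hairpin 2: ttatcgggagCAGTGTcttccataat
Tfrc 3′ UTR, hairpin 3: atatcggagaCAGTGAtctccatatg
Tfrc 3′ UTR, hairpin 4: ttatcgggaaCAGTGTttcccataat
The same pattern was found in a 5′ UTR of 21 of 20873 genes (0.101%) and in a 3′ UTR of 98 of 20981 (0.467%). No other of the 9 members held one, leaving aside Fech, for which hits were not kept in this search. A match describes letters and a possible fold, and RNA levels say nothing of its translation.

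The next enzymes work in the cytosol. Alad, which joins aminolevulinic acid molecules into the first ring, was the most abundant member in each library, from 77.7 FPKM in 1 E10.5 yolk sac library labelled HE to 269 in an E9.5 yolk sac HE library. Its E9.5 yolk sac HE libraries, at 173 and 269 FPKM, did not overlap the next group in order, E10.5 yolk sac EC at 166 and 166. The libraries labelled HE from the yolk sac at E10.5, at 77.7 and 132 FPKM, overlapped the embryo libraries, which ran from 94.1 to 128.

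Uros, which closes the ring of uroporphyrinogen, was the least abundant of the cytosolic members. In the embryo its lowest, median and highest libraries held 7.38, 11.2 and 15.4 FPKM, and in the yolk sac 15.0, 22.9 and 58.9. Only the lowest yolk sac library, of E9.5 EC, fell within the embryo range. Urod, which trims the side chains of that ring, ran from 37.7 to 60.9 FPKM in the embryo and from 62.9 to 146 in the yolk sac, with no overlap. Its highest libraries were the second of E9.5 yolk sac HE, at 146 FPKM, and the second of E9.5 yolk sac EC, at 115.

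The last enzymes sit in the mitochondrion. Cpox, which oxidises coproporphyrinogen, held 7.61 to 22.5 FPKM in the embryo and 25.2 to 102 in the yolk sac, again with no overlap. In the E10.5 yolk sac the libraries labelled HE differed widely from each other, at 29.3 and 102 FPKM. Fech, which inserts iron into the finished ring, held 10.7 and 15.8 FPKM in E9.5 embryo EC, 15.4 and 20.7 in E9.5 embryo HE, 13.0 and 17.0 in E10.5 embryo EC, and 13.9 and 17.5 in E10.5 embryo HE. In the yolk sac it held 24.3 and 39.5 FPKM in E9.5 EC, 38.1 and 69.2 in E9.5 HE, 45.1 and 48.0 in E10.5 EC, and 34.4 and 97.2 in the libraries labelled HE. Fech therefore did not overlap between the sites, and its groups within the embryo all overlapped their neighbours in order.

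Ppox, the enzyme before Fech in the chain, showed another order. In EC it held 11.1 and 13.5 FPKM in the E9.5 embryo, 14.7 and 20.0 in the E9.5 yolk sac, 14.8 and 15.9 in the E10.5 embryo, and 24.2 and 29.0 in the E10.5 yolk sac. In HE it held 17.2 and 24.5 FPKM in the E9.5 embryo, 32.7 and 46.0 in the E9.5 yolk sac, 20.6 and 21.7 in the E10.5 embryo, and 17.6 and 24.9 in the libraries labelled HE. Both HE libraries were above both EC libraries in 3 of the 4 settings, and not in the E10.5 yolk sac.

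Differences between groups were tested with limma, fitted to log2(FPKM + 1) of all 13955 genes and 16 libraries at once, and a gene is said to be called where its Benjamini-Hochberg adjusted p over all tested genes was under 0.05. All differences below are on that log2 scale, which understates the change of low genes. The comparisons share libraries, so their counts are not independent of each other.

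The yolk sac and embryo libraries were compared first within EC, averaged over both stages. Of the 9 members, 7 were higher in yolk sac EC and none was lower, where 34.1% of all tested genes were called in either direction and 15.4% were higher. Alas2 differed most, by 2.43 ± 0.48 (SE; limma adjusted p = 0.00251), then Fech by 1.39 ± 0.30 (adjusted p = 0.0043), Cpox by 1.35 ± 0.40 (adjusted p = 0.0225) and Uros by 1.11 ± 0.26 (adjusted p = 0.00628). Smaller differences were called for Urod (0.92), Ppox (0.60) and Alas1 (0.59 ± 0.16, adjusted p = 0.0132). Alad stood 0.53 higher at an adjusted p of 0.0583, and Tfrc differed by -0.02 ± 0.26 with a 95% interval of -0.59 to 0.55. The median of the 9 differences was 0.92, against -0.10 over all tested genes. Without the first E9.5 embryo EC library, the one with the lowest globin sum, 4 members and 24% of all tested genes were called, and Cpox (1.14, adjusted p = 0.0899), Ppox (0.54, adjusted p = 0.0674) and Alas1 (0.54, adjusted p = 0.0556) were not. Cpox was not called in 5 of 29 alternative settings, which include leaving out the first E10.5 embryo EC library (1.13), the first E10.5 yolk sac EC library (1.26) or the second E9.5 yolk sac EC library (1.21). Ppox was not called in 4, with values between 0.50 and 0.58, and Alas1 in 2, the other being without the first E9.5 yolk sac EC library (0.47).

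Within HE, 5 members were higher in the yolk sac and none was lower, where 36.9% of all tested genes were called and 14.6% were higher. They were Alas2 by 2.00 (adjusted p = 0.00717), Cpox by 1.83 (adjusted p = 0.00415), Fech by 1.65 (adjusted p = 0.00132), Uros by 1.16 (adjusted p = 0.00451) and Urod by 0.84 (adjusted p = 0.00864). Alad at 0.51, Ppox at 0.44 and Tfrc at 0.44 were not called, and Alas1 differed by 0.07 with a 95% interval of -0.28 to 0.42. This comparison rests in part on the yolk sac libraries labelled HE at E10.5: without both, 7 members were called, with Alad (1.03) and Ppox (0.88) added, where 15.2% of all tested genes were called and 7.65% were higher. Without the second libraries of E9.5 and of E10.5 yolk sac HE, in which 8 of the 9 members peaked, 3 members (Uros, Cpox and Fech) and 25.1% of all tested genes were called, and Alas2 stood at 1.42 (adjusted p = 0.0913).

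**Figure D2:**
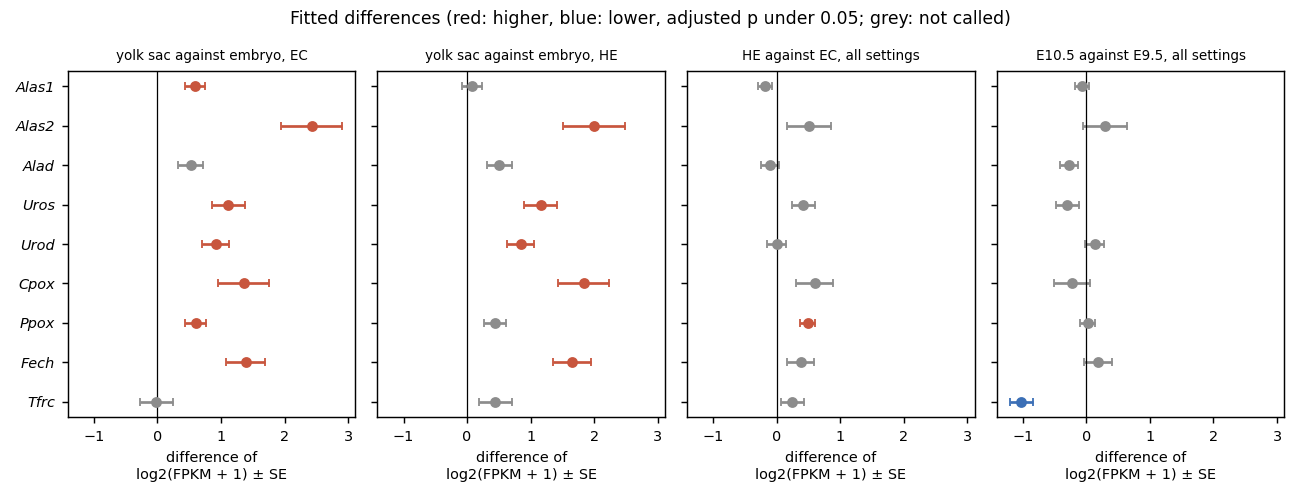
Fitted difference of log2(FPKM + 1) for each gene in 4 comparisons; points are estimates, bars ± 1 SE, red and blue mark genes called higher and lower at an adjusted p under 0.05. Yolk sac against embryo moves most heme enzymes to the right, from 2.43 for Alas2 in EC, whereas Tfrc is the gene called in the comparison of the stages.

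Averaged over both cell types and stages, a comparison added after the data were seen, 8 members were higher in the yolk sac, where 51% of all tested genes were called and 20.2% were higher. Alas2 stood 2.21 ± 0.34 higher (adjusted p = 0.000239), Cpox 1.59 ± 0.29, Fech 1.52 ± 0.21 (adjusted p = 0.000119), Uros 1.14 ± 0.18, Urod 0.88 ± 0.15, Ppox 0.52 ± 0.12 and Alad 0.52 ± 0.14. These 7 were called in all 29 alternatives, and the 8th, Alas1 (0.33 ± 0.11, adjusted p = 0.0273), was not called in 9 of them, at 0.26 to 0.32: with equal library sums, or without the first library of E9.5 embryo EC, E9.5 yolk sac EC or HE, E10.5 embryo EC, E10.5 yolk sac EC or HE, or the second of E9.5 or E10.5 embryo HE. Tfrc was not called, at 0.21 ± 0.18 (adjusted p = 0.352, 95% interval -0.19 to 0.61). Alas2, Urod, Cpox and Fech had all 8 yolk sac libraries above all 8 embryo libraries, as 6.09% of all tested genes did.

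Setting by setting, 7 members had both yolk sac libraries above both embryo libraries in E9.5 EC (25.9% of all tested genes did), 8 in E9.5 HE (27.6%), 8 in E10.5 EC (25.9%) and 5 in the E10.5 libraries labelled HE (22.6%). Tests of whether the difference between the sites depended on cell type called no member in limma, where 0.107% of all tested genes were called; 1 member, Alas1, had an unadjusted p under 0.05 (-0.52, adjusted p = 0.371). Without both E10.5 libraries labelled HE it was -0.38 (adjusted p = 0.984) for Alas1. The smaller difference between the sites of Alas1 in HE is therefore not shown to differ from that in EC.

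Markers of other cell types were compared between the sites in the same way. In EC 34.1% of all tested genes were called and 15.4% were higher in the yolk sac (median of all -0.10). In HE 36.9% were called and 14.6% were higher (median -0.14), and over all settings 51% and 20.2% (median -0.12). The list counts below stand against these shares. Of 19 erythroid genes, 18 were higher in yolk sac EC and 17 in yolk sac HE, with medians of 1.94 and 1.77, and the whole list summed to 1912 to 12037 FPKM in embryo libraries and 14269 to 56016 in yolk sac libraries. Of 13 visceral endoderm genes, 12 and 11 were higher, with medians of 5.85 and 6.37, and the list summed to 30.2 to 143 FPKM in the embryo, where Apoa4 was at 0 in E10.5 libraries, and to 2180 to 10092 in the yolk sac. Of 8 megakaryocyte genes, 7 and 6 were higher, with sums of 10.2 to 32.7 against 41.2 to 119 FPKM. Of the 10 macrophage genes 8 were tested, 6 and 2 of them higher, and the list summed to 4.98 to 13.9 FPKM in the embryo and 16.6 to 150 in the yolk sac. Of 12 endothelial genes, 2 were lower in yolk sac EC (median -0.05), 11 in yolk sac HE (median -1.85) and 8 over all settings (median -0.97). Of 8 mesenchymal genes, 3 were higher and 2 lower in EC, and 4 higher and 2 lower in HE, with medians of 0.70 and 0.87. Of 16 cell cycle genes, 4 were lower in EC, 4 in HE and 9 over all settings, with medians of -0.21, -0.24 and -0.25. Without both E10.5 libraries labelled HE, the comparison within HE called 2 endothelial genes lower (median -0.63), 9 of 19 erythroid and 11 of 13 visceral endoderm genes higher, 1 mesenchymal gene higher and 2 lower, and 1 cell cycle gene lower. The shares of all tested genes called in that setting are given above with the members. Both gates required CD31 and excluded CD41 and CD45 on the surface. The part of these cells in the differences was not tested.

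Alas2 kept close to the globin genes from library to library. The sum of 5 globin genes varied 29.4-fold over the 16 libraries, whereas Alas2 per 1000 FPKM of globin varied 1.80-fold, from 1.67 to 2.60 in the embryo and from 1.60 to 2.88 in the yolk sac. The 2 libraries of E9.5 embryo EC, which differed 6.17-fold in Alas2, had globin sums of 1897 and 10778 FPKM. No other member kept such a constant ratio: Fech per 1000 FPKM of globin ran from 0.809 to 5.66, and the range was 9.52-fold for Uros, 9.70-fold for Cpox, 25.4-fold for Alas1 and 45.2-fold for Tfrc. These ratios share the library and its scaling, and genes in one library are not independent.

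**Figure D3:**
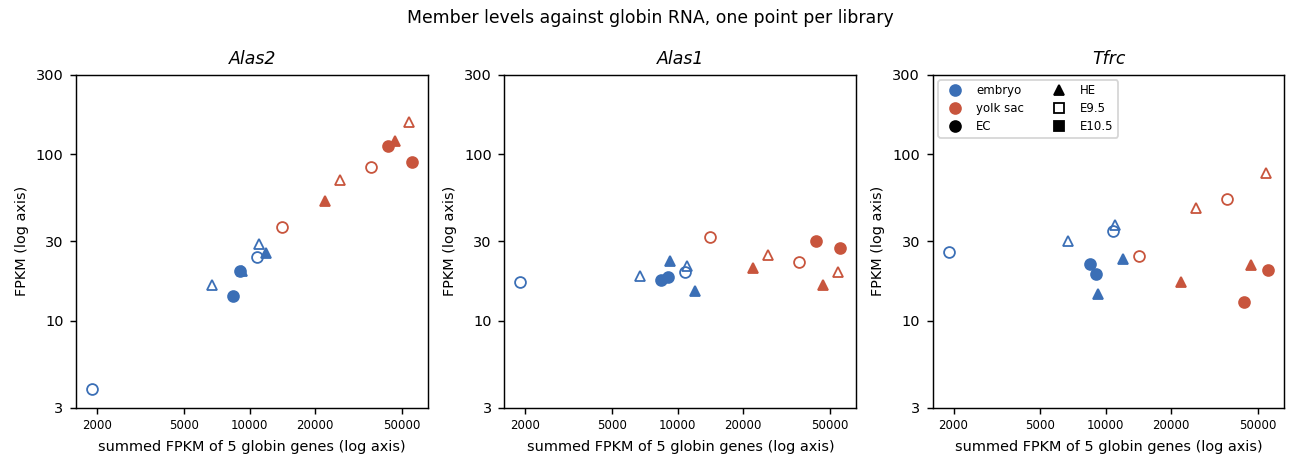
FPKM of Alas2, Alas1 and Tfrc against the summed FPKM of 5 globin genes, both on log axes; each point is 1 library, marked by site, cell type and stage. Alas2 runs parallel to the globin sum from 3.90 to 156 FPKM, whereas Alas1 stays between 15.0 and 32.0.

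HE was then compared with EC. Averaged over the 4 settings, 1 of the 9 members was higher in HE, where 12.4% of all tested genes were called and 6.7% were higher. It was Ppox, at 0.49 ± 0.12 (adjusted p = 0.0269). Ppox was called too without the libraries labelled HE from the yolk sac at E10.5, at 0.76 (adjusted p = 0.0226), where 2.57% of all tested genes were called, but not in 9 of the 29 alternatives, 8 of which left out 1 library each. These were the first of E9.5 embryo EC or HE, E9.5 yolk sac EC, E10.5 embryo EC or HE, and the second of E9.5 yolk sac HE, E10.5 embryo HE or E10.5 yolk sac EC, with values of 0.43 to 0.50. Cpox stood 0.60 ± 0.29 higher (adjusted p = 0.181), Uros 0.42 ± 0.18 (adjusted p = 0.149), Fech 0.38 ± 0.21 (adjusted p = 0.249) and Alas2 0.50 ± 0.34 (adjusted p = 0.336), none of them called. Alas1 was at -0.18 ± 0.11, Alad at -0.10 ± 0.14 and Urod at 0.00 ± 0.15, with a 95% interval for Urod of -0.33 to 0.33. Without the first E10.5 yolk sac library labelled HE, Cpox and Fech were called as well, 3 members in all, where 19.9% of all tested genes were called. The median of the 9 was 0.38, against 0.03 over all tested genes.

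Within single settings limma called no member in the E9.5 embryo (0.158% of all tested genes called, 1 member at an unadjusted p under 0.05), the E9.5 yolk sac (0.0143%, 2 members), the E10.5 embryo (0.208%, none) or the E10.5 yolk sac (9.57%, 2 members). Ppox in HE was above EC without overlap by 0.70 in the E9.5 embryo, where 30.6% of all tested genes lay apart in this direction, by 1.13 in the E9.5 yolk sac (23.2%) and by 0.44 in the E10.5 embryo (22.2%). In the E10.5 yolk sac it stood 0.33 lower in the libraries labelled HE, with overlap. There Alas1, Alad and Urod were lower in both libraries labelled HE than in both EC libraries, as were 23.9% of all tested genes. Beside these values, 11 of 12 endothelial genes were lower in HE over all settings (median -0.99) and 12 of 12 in the E10.5 yolk sac (median -2.63). Of 19 erythroid genes 1, Kel, was called higher over all settings (0.96, limma adjusted p = 0.0481). All 19 were above 0 with a median of 0.48, where 54.4% of all tested genes were above 0 (median 0.03). Of the 19, 7 were higher at an unadjusted p under 0.05, where 4285 of 13955 tested genes differed in either direction. Over all settings, 3 of 8 mesenchymal genes were also higher in HE (median 0.79, all 8 above 0), as were 3 of 8 megakaryocyte genes (median 0.34) and 2 of 13 visceral endoderm genes (median 0.36, all 13 above 0). Of 8 macrophage genes 2 were higher and 1 lower (median 0.05), and of 16 cell cycle genes 4 were higher and 1 lower (median 0.02). Without both E10.5 yolk sac libraries labelled HE, limma called no endothelial gene over all settings (median -0.49, all 12 below 0) and no mesenchymal gene (median 0.64). It called no erythroid gene either (median 0.70, all 19 above 0), Kel being at 1.31 (adjusted p = 0.0540). It called 3 megakaryocyte, 3 visceral endoderm and 4 cell cycle genes higher. The part of cell mixture in the HE differences was not tested.

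Tfrc separated the stages. At E9.5 it held 25.9 and 34.3 FPKM in embryo EC, 30.2 and 37.3 in embryo HE, 24.4 and 53.7 in yolk sac EC, and 47.6 and 76.8 in yolk sac HE. At E10.5 it held 19.0 and 21.8 FPKM in embryo EC, 14.4 and 23.5 in embryo HE, 13.0 and 20.0 in yolk sac EC, and 17.0 and 21.6 in the yolk sac libraries labelled HE. All 8 E10.5 libraries lay below all 8 E9.5 libraries, a separation that 21 of the 13955 tested genes (0.15%) showed. The means were 41.3 ± 17.6 FPKM (SD, n = 8) and 18.8 ± 3.71. In the order of the 8 group means the 4 groups of E9.5 came first, and the step from E9.5 embryo EC, at 30.1 FPKM, to E10.5 embryo EC, at 20.4, was the only one without overlap. Between the sites, both E9.5 yolk sac HE libraries lay above both E9.5 embryo HE libraries. The difference within HE was 0.44 with a 95% interval of -0.12 to 1.01, and a gene that is not called is not shown to be equal.

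The comparison of the stages over all settings was added after the data were seen. It called Tfrc alone among the 9 members, lower at E10.5 by 1.02 (log2 difference -1.02 ± 0.18, 95% interval -1.42 to -0.62, limma adjusted p = 0.00708), where 9.49% of all tested genes were called and 5.55% were lower. It was called in all 29 alternatives, with values between -1.16 and -0.83, the latter without both E10.5 yolk sac libraries labelled HE (adjusted p = 0.0370). By setting the difference was -0.53 in embryo EC, -0.83 in embryo HE, -1.12 in yolk sac EC and -1.61 in yolk sac HE, without overlap in any, as for 25.1%, 24.6%, 29.9% and 36.2% of all tested genes. Within HE, Tfrc was the 1 member called lower (-1.22 ± 0.26, adjusted p = 0.0366), where 2.28% of genes were called and 1.08% were lower, but it was not called in 18 of 29 alternatives. These include leaving out any one of 11 libraries (-1.39 to -1.05), which are the 8 embryo libraries and the yolk sac HE libraries other than the first at E10.5, and both libraries labelled HE (-0.83, adjusted p = 0.342). Within the yolk sac it was called as well (-1.36 ± 0.26, adjusted p = 0.0112), where 9.02% were called and 5.63% were lower, and it was not called in 4 alternatives, among them without both E10.5 libraries labelled HE (-1.12, adjusted p = 0.133) and without the first E10.5 yolk sac EC library (-1.22, adjusted p = 0.0522).

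In EC no member was called between the stages by limma (2.02% of all tested genes were; 2 members had an unadjusted p under 0.05), and in the embryo none was called either (5.92%; 1 member, Tfrc at -0.68, adjusted p = 0.172). Whether the drop of Tfrc differed between the sites was tested and not called (-0.68 ± 0.37, adjusted p = 0.275); 5.34% of all tested genes were called in that test, and no member had an unadjusted p under 0.05. The heme enzymes lay between -0.30 (Uros) and 0.30 (Alas2) between the stages over all settings, none called. Within HE none of the 9 members was above 0 (median -0.38), where 36.5% of all tested genes were (median -0.08). There 4 members, Tfrc, Alad (-0.55), Uros (-0.59) and Ppox (-0.41), were lower at an unadjusted p under 0.05, where 2495 of 13955 tested genes differed in either direction. In yolk sac HE the same 4 lay lower at E10.5 without overlap, as did 36.2% of all tested genes. The test of whether HE and EC differ between the stages called no member, where 0.0287% of genes were called; 1 member, Ppox, had an unadjusted p under 0.05 (-0.86 ± 0.24, adjusted p = 0.698). Without both E10.5 yolk sac libraries labelled HE, the value was -0.26 for Ppox in this test (adjusted p = 1) and -0.59 for Tfrc in the test of the sites (adjusted p = 0.679).

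Lists of other cell markers were also compared between the stages. Over all settings 35.9% of all tested genes were above 0 (median -0.08), and 9.49% were called. There 3759 of 13955 had an unadjusted p under 0.05 in limma. In the yolk sac 32.6% were above 0 (median -0.14), 9.02% were called and 4118 had an unadjusted p under 0.05. The list counts below stand against these shares. Over all settings no cell cycle gene of 16 was called by limma, 5 were lower at an unadjusted p under 0.05, and all 16 differences were below 0 with a median of -0.16. In the yolk sac 2 of 16 were called lower, Plk1 (-0.47, adjusted p = 0.0277) and Mcm3 (-0.34, adjusted p = 0.0438), 12 were lower at an unadjusted p under 0.05, and the median was -0.34. Without both E10.5 libraries labelled HE these 2 were not called there (-0.28 and -0.44). The cell cycle genes summed to 1213 to 1575 FPKM in the 4 E10.5 yolk sac libraries and to 1718 to 2034 in the other 12. Over all settings, 5 of 8 macrophage genes were higher at E10.5 (median 0.60), 6 of 8 megakaryocyte genes were higher and 1 lower (median 0.66), 2 of 19 erythroid genes were higher (median 0.15) and 2 of 13 visceral endoderm genes were higher (median -0.23). No endothelial gene was called by limma over all settings (1 of 12 lower at an unadjusted p under 0.05, median -0.24, all 12 below 0), nor any mesenchymal gene (median 0.35, 3 of 8 at an unadjusted p under 0.05). In the yolk sac 1 endothelial gene was called lower (median -0.97, 10 lower at an unadjusted p under 0.05), 5 macrophage genes were higher (median 1.07), 6 megakaryocyte genes were higher and 1 lower (median 0.90), 2 visceral endoderm genes were higher (median 0.70), and 1 mesenchymal gene was higher and 1 lower (median 0.85). Without both E10.5 libraries labelled HE, the endothelial median was -0.05 in the yolk sac and 0.30 over all settings, with no gene called, and 4 of 7 macrophage and 4 of 8 megakaryocyte genes were higher in the yolk sac. The part of these lists in the result was not tested.

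The ratio of Tfrc to Fech FPKM in a library ran from 2.41 in the first E9.5 embryo EC library to 0.222 in the second E10.5 yolk sac library labelled HE. All 4 E10.5 yolk sac libraries lay between 0.222 and 0.495.

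The members were also compared by the pattern of their 8 group means, as a description. Pearson's r between heme enzymes other than Alas1 lay between 0.584 and 0.969, highest for Alas2 with Fech. Alas1 had an r of 0.391 to 0.721 with the other heme enzymes, and Tfrc of 0.109 to 0.571 with all of them. Over the 7 group means left without E10.5 yolk sac HE, these ranges were 0.724 to 0.988, 0.415 to 0.826 and 0.0288 to 0.611. Among 10332 candidate genes, those most like Alas2 were the embryonic globin Hbb-bh1 (r = 0.996), Slc4a1 (0.994), the anion exchanger of the red cell membrane, Rhag (0.993), a Rhesus-associated membrane protein, Klf1 (0.992), an erythroid transcription factor, and Cited4 (0.990). Most like Fech was Slc6a4 (0.994), a serotonin transporter, most like Cpox was Tmx2 (0.996), and most like Uros was 6030468B19Rik (0.992). Alad was most like Glrx5 (0.975), which handles iron-sulfur clusters, Urod most like Acy1 (0.981), and Ppox most like Gfi1b (0.961), a repressor in red cell and platelet precursors. Alas1 was most like Il4ra (0.989), and Tfrc most like Prkar2b (0.957), Vps41 (0.952) and Zwilch (0.950). Each r for these genes rests on 8 points, E10.5 yolk sac HE included, each the mean of 2 libraries with shared scaling.

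**Figure D4:**
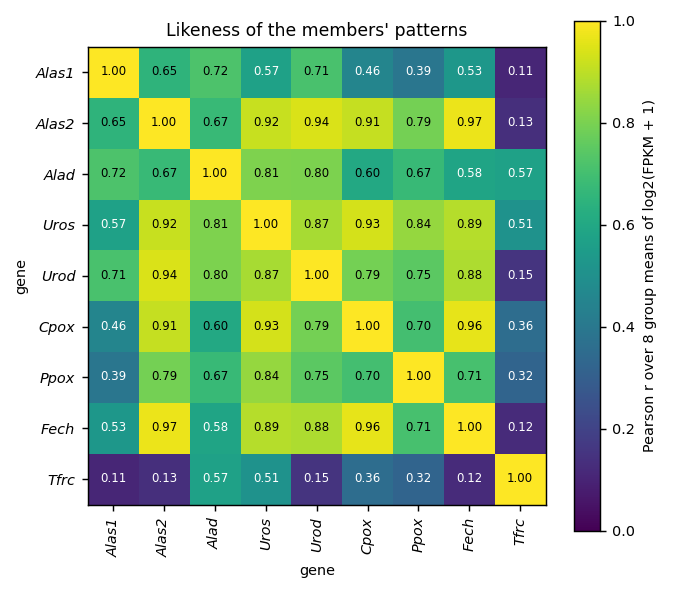
Pearson's r between the patterns of the 9 genes over the 8 group means of log2(FPKM + 1); rows and columns are genes and colour is r. Among the heme enzymes from Alas2 to Fech r lies between 0.584 and 0.969. The range for Alas1 with these enzymes, 0.391 to 0.721, overlaps it, and r for Tfrc with the heme enzymes is 0.109 to 0.571.

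The stretch before the start of Alas2 and of Cpox is shown because these were 2 of the members with no overlap between the sites and because both held a word bound by GATA factors. The words searched were AGATAA and TGATAA for GATA factors and CCACCC for KLF factors, on both strands, in the 250 bases before each gene's start in RefSeq (GRCm38.p6). All members but Fech had an entry, some with more than 1 window. Alas2, on the plus strand at chrX:150547167-150547416, had a reversed GATA word 86 bases before its start and 3 overlapping reversed CCACCC words 40, 35 and 30 bases before it. Cpox, on the plus strand at chr16:58669958-58670207, had a reversed GATA word 86 bases before its start. Capitals mark the words.
Alas2: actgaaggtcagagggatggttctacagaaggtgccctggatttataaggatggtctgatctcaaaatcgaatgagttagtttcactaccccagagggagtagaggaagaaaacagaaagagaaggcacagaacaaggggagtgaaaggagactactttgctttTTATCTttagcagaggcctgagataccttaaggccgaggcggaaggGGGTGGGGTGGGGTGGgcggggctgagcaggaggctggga
Cpox: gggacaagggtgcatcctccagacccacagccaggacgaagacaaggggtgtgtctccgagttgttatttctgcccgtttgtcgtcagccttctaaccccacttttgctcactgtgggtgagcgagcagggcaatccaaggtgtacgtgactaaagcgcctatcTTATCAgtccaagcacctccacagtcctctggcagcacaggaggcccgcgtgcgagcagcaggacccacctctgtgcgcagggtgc
Urod, which also did not overlap between the sites, held neither word, and Fech, the other such member, could not be read. Uros had a GATA word in 1 of its 2 windows, 68 bases before the start, and CCACCC was found in 1 window each of Alas1 and Tfrc. A GATA word was found in 16.6% of all 32851 windows and CCACCC in 28.1%. Counted by gene, with any window enough, the shares were 18.8% and 30.6% of 27025 genes. These matches describe letters and not binding.

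Other genes of heme and iron handling were read from lists. Their counts in yolk sac against embryo stand against the 34.1% of all tested genes called in EC (15.4% of all tested genes were higher) and the 36.9% called in HE (14.6% higher). Of 19 tested genes of mitochondrial iron and heme transport, 9 were higher and 1 lower in yolk sac EC, and 6 were higher in yolk sac HE, with medians of 0.35 and 0.20. The 6 of 19 called in HE are a smaller share than the 36.9% of all tested genes called in either direction. All 6 were higher, a larger share than the 14.6% of all tested genes called higher. Slc25a37 (mitoferrin 1), which imports iron for Fech, was higher by 1.32 in EC (adjusted p = 0.0135) and 1.52 in HE (adjusted p = 0.00578). Tmem14c, a carrier of heme precursors, was higher by 0.70 and 0.68, and Fam210b by 0.69 and 0.62. In yolk sac HE 6 genes of the list were called higher also without both E10.5 libraries labelled HE, among them Slc25a37 (1.52, adjusted p = 0.0273), Tmem14c (1.05) and Fam210b (0.99).

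Of 22 tested genes of iron uptake, storage and regulation, 12 were higher and 2 lower in yolk sac EC, and 11 were higher and 5 lower in yolk sac HE, with medians of 0.51 and 0.54. Trf, the iron carrier transferrin, differed most, by 4.23 ± 0.21 in EC (adjusted p = 1.32e-07) and 4.48 ± 0.21 in HE (adjusted p = 6.8e-08). Its levels were 5.24 to 20.2 FPKM in the embryo and 72.0 to 701 in the yolk sac, and Trf also stands in the visceral endoderm list. Its receptor Tfrc was not called between the sites. Steap1, of a family of metal reductases, was higher by 2.22 and 2.48, and the iron exporter Slc40a1 by 1.82 in EC (adjusted p = 1.93e-05) and 1.44 in HE (adjusted p = 9.81e-05). Ireb2, an iron regulatory protein, was lower by a log2 difference of -0.43 in EC (adjusted p = 0.0295) and -0.45 in HE (adjusted p = 0.0227). The list had 9 genes called higher in yolk sac HE and none lower without both E10.5 libraries labelled HE, with Trf at 4.20 and Steap1 at 2.00, both called. Between the stages over all settings, Trf rose by 1.60 (adjusted p = 0.000325) while Tfrc fell by 1.02, and without those libraries Trf was called at 1.63.

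Of 16 tested genes of heme breakdown, binding and export, 4 were higher in yolk sac EC, and 3 were higher and 1 lower in yolk sac HE, with medians of 0.09 and 0.29. The 4 of 16 called in each comparison are a smaller share than the 34.1% and 36.9% of all tested genes called in either direction. Those called higher, 4 of 16 in EC and 3 of 16 in HE, stand beside 15.4% and 14.6% of all tested genes called higher. In a list of 16 such gaps rest on few genes, and they were not tested. Blvrb, a biliverdin reductase, was higher by 2.22 in EC (adjusted p = 0.000909) and 1.67 in HE (adjusted p = 0.00487), and Hebp1, a heme-binding protein, by 1.47 and 1.23. Hmox1, the inducible enzyme that opens the heme ring, was higher in yolk sac EC by 1.01 (adjusted p = 0.00121) and stood at 0.28 in HE (adjusted p = 0.236). Of 5 tested regulators of the ALAS genes, 3 were higher and 1 lower in yolk sac EC and 3 were higher in yolk sac HE. The erythroid factors Klf1 (1.94 in EC, 1.86 in HE), Gata1 (1.87 and 1.77) and Nfe2 (2.12 and 1.39) were higher, Nrf1, a factor of mitochondrial genes, was lower in EC (-0.43, adjusted p = 0.00728), and Tal1 was at 0.05 and 0.06, not called. Klf1, Gata1 and Nfe2 also stand in the erythroid list. Without both E10.5 libraries labelled HE, Blvrb (2.12), Hebp1 (1.69), Klf1 (2.00) and Gata1 (1.97) were called in yolk sac HE and Nfe2 was not (1.74, adjusted p = 0.0573).

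Between HE and EC over all settings, where 12.4% of all tested genes were called, the lists gave small counts in both directions. Of the 16 genes of heme breakdown, binding and export, 2 were higher in HE, Lrp1 (1.18, adjusted p = 0.0127), a receptor that takes up hemopexin with heme, and Pgrmc2 (0.24, adjusted p = 0.0405), and 2 were lower, Hmox1 (-0.53, adjusted p = 0.0248) and Hmox2 (-0.34, adjusted p = 0.0200), the inducible and the constitutive heme oxygenase. Of the 22 genes of iron uptake, storage and regulation none was higher and 2 were lower, Hfe, which binds the transferrin receptor (-0.64, adjusted p = 0.0403), and Snx3 (-0.34, adjusted p = 0.0228), a sorting protein. Limma called none of the 19 mitochondrial genes (3 at an unadjusted p under 0.05) and none of the 5 regulators (2 at an unadjusted p under 0.05). Without both E10.5 yolk sac libraries labelled HE, Lrp1 was called by limma (1.18, adjusted p = 0.0422). It was the 1 gene of its list called there, so Pgrmc2 was not. Hmox1 (-0.43, adjusted p = 0.104), Hmox2 (-0.25, adjusted p = 0.126), Hfe (-0.27, adjusted p = 0.457) and Snx3 (-0.32, adjusted p = 0.0834) were not called. Of the genes of iron uptake, storage and regulation, 1 was called higher in that setting.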

How the data were processed

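RNA was measured in 16 libraries, 2 for each stage, site and sorted cell type. The authors deposited FPKM per gene symbol and library in 1 table. Per the submitters' processing notes, Cufflinks, featureCounts and the build mm9 were used; their versions and roles, the aligner, annotation, strand and handling of shared reads are not given in the sources that were read. FPKM keeps no read depth, and low-value steps gave a clear relative depth (0.669 to 0.966 of the first library) for 5 of 15 libraries. Sums of FPKM were 586501 to 785252.

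Genes reaching 1 FPKM in 2 or more libraries (13955; 19576 others were not tested) entered limma 3.58.1 in R 4.3.3 on log2(FPKM + 1), with 1 mean per group, an intensity trend and 8 residual and 3.68 prior degrees of freedom. Adjusted p-values are Benjamini-Hochberg over all tested genes of a comparison. The fit was tested on simulated data. Of 16 comparisons 11 were planned and 5 were added after the data were seen. Alternatives changed the pseudocount, filter, scaling, weights, trend, groups fitted, replicate block or libraries. The members and gene lists were chosen with earlier results of these data known. The naming rule took all 9 members, the 5 tested genes most like each by Pearson's r over the group means of log2(FPKM + 1) (those with at least 5 FPKM in their highest group) and, per list and comparison, at most the 3 called genes of largest difference. Ireb2, Nrf1, Tal1, Pgrmc2 for HE against EC and the second value of Slc40a1 and Hmox1 lie outside it and were chosen after their values were seen. Sequences were read from RefSeq GRCm38.p6 and GENCODE vM21 with pandas 2.3.3 in Python 3.11.15, and no coordinate was carried over to mm9. Protein sequences were not used here.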

Additional observations from a re-analysis of the deposited data

Results flagged for a closer look

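Ppox, the enzyme before ferrochelatase, moved in opposite directions between the stages in different groups. The libraries of the stages did not overlap in embryo EC, yolk sac EC or yolk sac HE. From E9.5 to E10.5 it stood 0.30 higher in embryo EC and 0.86 lower in yolk sac HE on the log2(FPKM + 1) scale (log2 differences 0.30 and -0.86), which is a gap of 1.16. In yolk sac EC it stood 0.60 higher, which is a gap of 1.46 from yolk sac HE. In embryo HE the stages overlapped, with 17.2 and 24.5 FPKM at E9.5 and 20.6 and 21.7 at E10.5 (difference 0.04). These gaps themselves were not tested. The nearest test, of whether HE and EC differ between the stages averaged over both sites, gave -0.86 ± 0.24 for Ppox and did not call it (limma adjusted p = 0.698), and without both E10.5 yolk sac libraries labelled HE it gave -0.26 (adjusted p = 1). Ppox was not alone in this direction. In the same test with all libraries, none of the 9 members was above 0 (median -0.44), where 48.7% of all tested genes were. None of 19 erythroid genes was above 0 there either (median -0.81), and none was called. The libraries labelled HE from the E10.5 yolk sac, which enter both gaps, are those in which Runx1 did not stand apart from EC. The part of their cell mixture in the gaps was not tested.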

How the results depend on the processing

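In 29 alternatives, 218 of 317 single-gene results kept their call or their lack of one, and 1 called value changed sign: Apoa4 between the stages over all settings, 0.51 and -0.32 with a pseudocount of 0.1. For yolk sac against embryo, members called in HE were 5, or 3 without the second libraries of E9.5 and E10.5 yolk sac HE; in EC they were 4 to 8 with 1 library left out. For HE against EC over all settings the count was 1, 0 to 3 with 1 library left out, and 0 without those second libraries; in the E9.5 embryo it was 0, and 1 with array weights. Between the stages the count in HE was 1, and 0 with a pseudocount of 0.1, no filter, upper quartile scaling, array weights, only the compared groups, without both E10.5 yolk sac libraries labelled HE and without the second libraries; in the yolk sac 1, and 0 with only the compared groups and without either set of libraries; in the embryo 0, and 1 with only the compared groups. With 1 library left out the stage counts were 0 to 1 in EC, 0 to 1 in HE and 0 to 1 in the yolk sac. The cause was not tested. A lone library left in a group was assumed to vary like the others, and HE against EC in the E10.5 yolk sac could not be fitted without its HE libraries.

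All genes called moved by more than 1.5 times in most comparisons other than those of the sites. HE against EC over all settings called 1726 genes, from 491 without the first E10.5 embryo EC library to 2763 without the first E10.5 yolk sac library labelled HE, and 355 without both of the latter group. In the E9.5 embryo it called 22 (5 to 35 with 1 library left out, 586 with array weights), in the E9.5 yolk sac 2 (0 to 3, and 11 with no filter), in the E10.5 embryo 29 (2 to 29, and 94 with no filter) and in the E10.5 yolk sac 1335 (13 to 2625, and 1 with array weights). Yolk sac against embryo in HE called 5150, and 2099 without both libraries labelled HE. Between the stages EC had 282 (38 to 548), HE 318 (91 to 830, and 75 with only the compared groups), the embryo 826 (362 to 1041, and 1499 with array weights), the yolk sac 1259 (346 to 2359, and 89 with only the compared groups) and all settings 1324 (609 to 1811). The interactions called 15 (0 to 391) for cell type with site, 4 (0 to 42) for cell type with stage and 745 (207 to 1757) for site with stage.

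Scaling moved the share of called genes that were higher: from 54.2% to 82.2% (equal library sums) and 36.4% (upper quartile) for HE against EC over all settings, from 41.5% to 59.1% (upper quartile) and 65.4% (quantile) for the stages over all settings, from 37.6% to 71% (quantile) in the yolk sac, from 52.5% to 69.6% in HE and 70.7% in EC (quantile), from 53.8% to 76% (equal library sums) for site with stage, and from 32.3% to 55.3% (equal library sums) for HE against EC in the E10.5 yolk sac. With equal library sums the median difference of all genes went from 0.03 to 0.14 for HE against EC over all settings, from 0.03 to 0.17 in the E9.5 embryo and from 0.01 to 0.17 in the E10.5 yolk sac; Ppox stood at 0.40 to 0.62 over all settings under the scalings, called in each.

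Replicate numbers recur in every group, but the labels do not say that they mark a shared litter or day. Of 28 correlations of same-numbered deviations 8 were above 0.1 (range -0.26 to 0.38), so the numbers were not taken as pairs. With the replicate block, the number of members called was unchanged in all 16 comparisons (7 for the sites in EC, 5 in HE and 8 over all settings), and 1861 genes were called for HE against EC over all settings; the count for cell type with site went from 15 to 46. Depth in reads is unknown, so no limit could be set for low values.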
